A study of Mus musculus with 48 samples.

Results

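The Hedgehog pathway genes described here were the ligand genes Shh, Ihh and Dhh, the receptor and inhibitor genes Ptch1 and Hhip, the signal transducer gene Smo and the transcription factor genes Gli1, Gli2 and Gli3. They are 9 of the 19938 genes that could be named on the array, and each of the 9 was read by a single transcript cluster, a group of probes laid along the gene. The genes were selected on their log2 signal over the tumor models, so their levels and ranges over the models are given as a description. RNA had been taken from 48 primary mouse mammary tumors, 4 independent tumors from each of 12 models, and each tumor had been hybridized to its own Affymetrix mouse gene array. In every model, cells of a mammary tumor line had been implanted in the mammary fat pad of immunocompetent mice of the line's own strain, and each model therefore stands for 1 cell line. TS/A-E1, F311, EMT-6, D2A1 and 4T1 came from spontaneous tumors of BALB/c mice. 6DT1, HRM-1, M6, Met-1 and MVT-1 came from tumors of genetically engineered FVB/N mice, and MVT-1 arose in a mouse carrying Myc and VEGF transgenes driven by the MMTV promoter. E0771 came from a spontaneous C57BL/6 tumor and R3T from a genetically engineered 129Sv tumor. No group was treated, and the samples compared here hold no normal mammary gland.

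In the Hedgehog pathway a secreted ligand binds Ptch1, which otherwise holds the membrane protein Smo inactive. Freed Smo signals at the primary cilium to the Gli proteins, of which Gli1 is an activator, Gli2 is mainly an activator and Gli3 is mainly a repressor. Gli1, Ptch1 and Hhip are themselves transcribed in response to the pathway, and the last of these encodes a membrane-bound protein that takes up ligand. In the embryonic mouse mammary gland the pathway is held off and Gli3 is needed as a repressor. In breast tumors the ligands are known mainly from the carcinoma cells, and stromal cells are among those that respond. The arrays read RNA of whole tumors, so fewer cells of a type and less RNA per cell cannot be told apart.

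Promoter sequences are shown for Hhip and Ptch1, a pair of Gli target genes whose signals lay at opposite ends in the same model, and for Dhh, the ligand gene with the widest range over the models. Each runs from 250 bases before to 50 bases after the gene's start in RefSeq on the build GRCm38.p6, 5′ to 3′ on the strand of the gene, and capitals mark CpG dinucleotides. The Hhip window is chr8:80057959-80058258, the Ptch1 window chr13:63565686-63565985 and the Dhh window chr15:98898491-98898790, all on the minus strand.
Hhip: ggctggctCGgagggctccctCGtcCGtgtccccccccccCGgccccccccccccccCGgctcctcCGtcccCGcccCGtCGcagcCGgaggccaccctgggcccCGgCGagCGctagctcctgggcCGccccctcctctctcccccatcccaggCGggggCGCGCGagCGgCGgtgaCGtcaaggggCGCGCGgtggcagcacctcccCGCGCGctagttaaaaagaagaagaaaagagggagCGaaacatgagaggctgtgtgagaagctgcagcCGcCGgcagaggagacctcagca
Ptch1: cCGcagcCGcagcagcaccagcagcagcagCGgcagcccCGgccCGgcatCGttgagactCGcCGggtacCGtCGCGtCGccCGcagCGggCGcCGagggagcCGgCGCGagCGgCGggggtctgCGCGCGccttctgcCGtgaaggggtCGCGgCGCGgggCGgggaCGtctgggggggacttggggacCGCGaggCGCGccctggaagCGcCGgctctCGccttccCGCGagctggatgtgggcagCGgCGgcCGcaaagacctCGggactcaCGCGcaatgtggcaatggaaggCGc
Dhh: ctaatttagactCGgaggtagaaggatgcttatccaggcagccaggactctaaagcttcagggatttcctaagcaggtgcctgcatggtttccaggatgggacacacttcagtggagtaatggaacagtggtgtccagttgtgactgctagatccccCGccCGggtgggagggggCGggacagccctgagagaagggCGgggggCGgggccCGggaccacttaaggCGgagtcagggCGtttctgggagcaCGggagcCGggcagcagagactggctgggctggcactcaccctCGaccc

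The Ptch1 window held 47 CpG dinucleotides, the Hhip window 30 and the Dhh window 12, beside a median of 7 over 32544 distinct promoter windows of the same length. RefSeq windows matched 7 of the 9 members, namely Ihh, Dhh, Ptch1, Hhip, Smo, Gli2 and Gli3. The letters GACCACCCA, the consensus bound by Gli proteins, were searched on both strands. They were found in 0 of the 7 windows and in 0.246% of all windows. These counts describe the letters of the windows only.

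Signal on the arrays ran from 3.49 to 14.12 on the log2 scale, and array medians from 6.76 to 6.99. Mammary epithelial markers were not equally high in all models. Epcam, an epithelial adhesion gene, averaged 6.31 in D2A1 and 11.58 in M6, and Krt18, a luminal keratin gene, averaged 8.10 in E0771 and 12.98 in HRM-1. The adipocyte marker score, the mean over 7 measured markers of the deviation from each gene's mean, lay more than 2.5 above the median tumor in 7 tumors. The B cell score did so in 5 tumors, 3 of them also fat-rich. These 9 tumors were F311 replicates 1 and 2, 6DT1 replicates 2 and 3, Met-1 replicate 2, 4T1 replicate 3, E0771 replicate 1, R3T replicate 2 and EMT-6 replicate 3. The arrays of 3 tumors, F311 replicate 1, Met-1 replicate 2 and 6DT1 replicate 4, correlated best with a tumor of another model. The 9 tumors are called host-rich here. The limma tests and the relations of members with each other and with marker scores were also run without them. The model means, their order and their ranges are given only with all tumors.

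By the limma F-test over the 12 models, 8 of the 9 members had an adjusted p under 0.05, where 70.4% of the 19938 genes did. Among the 5 BALB/c models 7 of 9 passed, where 46.7% of genes did, and among the 5 FVB/N models 6 of 9, where 62.4% did. The same signals chose the members, so nothing is read from these counts. Ihh passed in none of these 3 tests, and Shh passed only in the first. Shh lost that call without the 9 host-rich tumors and under 8 other alternatives. The range of the model means was largest for Hhip, 32.1-fold in signal between the highest and the lowest model. On the log2 scale Gli3 followed with a range of 2.94 and Dhh with 2.06. The range was 1.44 for Gli2 and for Smo, 1.34 for Ptch1, 0.81 for Gli1, 0.33 for Shh and 0.31 for Ihh. The median range over all genes was 0.68.

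**Figure D1:**
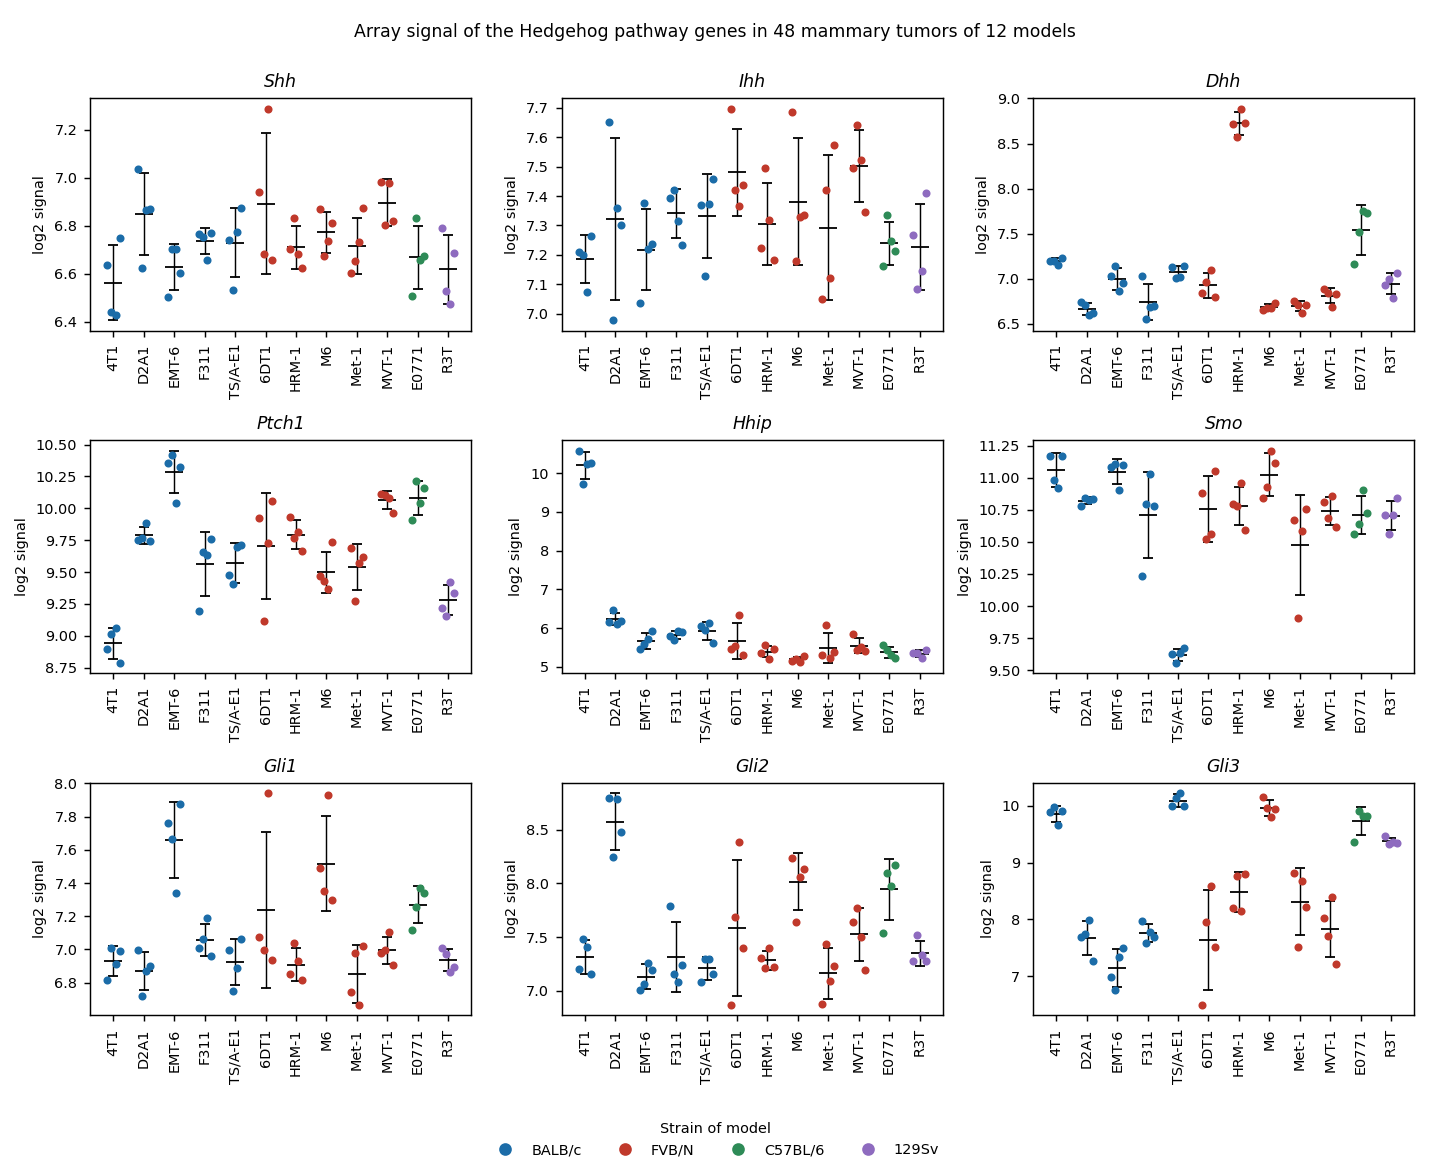
Log2 array signal of the 9 Hedgehog pathway genes, 1 panel per gene, with the 12 models on the horizontal axis and a separate vertical axis for each gene. Points are single tumors colored by strain, and bars give the mean ± SD of 4 tumors. Hhip stands apart in 4T1, Dhh in HRM-1 and Smo in TS/A-E1, and the Shh and Ihh panels span less than 1 unit in all.

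Hhip was high in a single model. The 4 tumors of 4T1 read 10.57, 9.73, 10.24 and 10.25 for Hhip, a mean of 10.20 ± 0.35 (SD, n = 4). The next model, D2A1, read 6.16, 6.46, 6.11 and 6.20, a mean of 6.23 ± 0.16. All 4 tumors of 4T1 lay above all 44 others, whose highest value was 6.46. The step from D2A1 to 4T1 was 3.97 on the log2 scale, which is 15.6-fold in array signal. The remaining models descended from 5.93 ± 0.23 in TS/A-E1 to 5.19 ± 0.07 in M6. Of the 11 steps between neighboring models in this order, the step from 4T1 to D2A1 was the only one at which the tumors of the neighbors did not overlap. Without 4T1 the range of Hhip over the models was 1.04. These lower values lay below every array median, so background limits what their order, and relations over them, can show. The 4T1 tumor with a high B cell score, replicate 3, read 10.24 and so did not stand out for Hhip.

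Ptch1, the ligand receptor, was lowest in the model in which Hhip was highest. The 4T1 tumors read 8.90, 9.01, 9.06 and 8.79 for Ptch1, a mean of 8.94 ± 0.12, and all 4 lay below the 44 other tumors, whose lowest value was 9.11. R3T was next with 9.28 ± 0.12, a step of 0.34 with no overlap between the models. At the upper end, EMT-6 read 10.35, 10.42, 10.04 and 10.33, a mean of 10.29 ± 0.17. E0771 with 10.08 ± 0.14 and MVT-1 with 10.07 ± 0.07 followed, and their tumors overlapped with those of EMT-6 and with each other. MVT-1 did not overlap with HRM-1, which came next with 9.79 ± 0.11. The other 5 models between HRM-1 and R3T averaged 9.50 to 9.71 and D2A1 9.79, and each overlapped with its neighbors. The lowest tumor outside 4T1 was 6DT1 replicate 2, which was fat-rich.

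Smo, the signal transducer that Ptch1 holds inactive, was low in a single model. TS/A-E1 read 9.67, 9.63, 9.56 and 9.63, a mean of 9.62 ± 0.05, below all 44 other tumors, of which the lowest read 9.90. The other 11 model means lay between 10.48 in Met-1 and 11.06 in 4T1, and every pair of neighbors among them overlapped. Met-1 read 10.67, 9.90, 10.59 and 10.75, and its low tumor, replicate 2, was rich in adipocyte and B cell transcripts and was among the 3 tumors nearer another model. The step from Met-1 down to TS/A-E1 was 0.86 on the log2 scale, or 1.81-fold.

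Of the ligand genes, only Dhh varied by more than 1 unit over the models. HRM-1 read 8.71, 8.57, 8.89 and 8.73 for Dhh, a mean of 8.72 ± 0.13, above all 44 other tumors. E0771 followed with 7.16, 7.52, 7.76 and 7.73, a mean of 7.54 ± 0.28, and its fat-rich tumor, replicate 1, was the lowest of the 4. The step from HRM-1 to E0771 was 1.18, or 2.27-fold in signal. 4T1 came after it with 7.20 ± 0.03 and overlapped with E0771 but not with the model next in order, TS/A-E1, at 7.08 ± 0.07. The remaining 8 models ran down to 6.67 in D2A1 with overlap at every step. Shh averaged 6.56 in 4T1 to 6.90 in MVT-1 and Ihh 7.19 in 4T1 to 7.50 in MVT-1. For these 2 genes, all 11 steps between neighboring models overlapped, and the model means ranged over 2.32 and 1.94 times the SD within models.

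Gli3, the main repressor of the family, split the models more widely than Gli1 or Gli2. The 4 tumors of TS/A-E1 read 9.99 to 10.22 for Gli3, a mean of 10.09 ± 0.11. M6 with 9.97 ± 0.14, 4T1 with 9.86 ± 0.14, E0771 with 9.72 ± 0.25 and R3T with 9.37 ± 0.06 formed the upper end with it. A step of 0.90 with no overlap separated R3T from HRM-1, which averaged 8.48 ± 0.35. These 5 upper models covered all 4 strains, and every one of the 20 tumors in them read above the 28 tumors of the other 7 models. Met-1, MVT-1, F311, D2A1 and 6DT1 lay between 8.31 and 7.64. EMT-6 was lowest with 6.99, 6.76, 7.34 and 7.50, a mean of 7.15 ± 0.33. 6DT1 had the widest spread, with 6.50, 7.95, 8.59 and 7.52, and its 2 higher tumors were the fat-rich ones.

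Gli2 was highest in D2A1, at 8.79, 8.24, 8.78 and 8.48, a mean of 8.57 ± 0.26. M6 followed with 8.02 ± 0.26 and E0771 with 7.94 ± 0.29, and the step of 0.56 from D2A1 to M6 was the only one of the 11 without overlap. A tumor of 6DT1, the fat-rich replicate 3, read 8.38 and so lay within the D2A1 values. The lowest mean was 7.13 ± 0.12, in EMT-6, the model lowest in Gli3 as well.

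Gli1, whose transcription is a common readout of the pathway, had the smallest range of the 3 Gli genes. EMT-6 read 7.76, 7.66, 7.34 and 7.87, a mean of 7.66 ± 0.23, and M6 read 7.49, 7.35, 7.93 and 7.30, a mean of 7.52 ± 0.29. E0771 averaged 7.27 ± 0.11. In 6DT1 the tumors read 7.08, 6.99, 7.94 and 6.94, a mean of 7.24 ± 0.47, with 1 fat-rich tumor well above the other 3. The other fat-rich tumor of the model read 6.99. The other 8 models averaged 6.85 in Met-1 to 7.06 in F311, and all 11 steps between neighbors overlapped.

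EMT-6 thus held the highest means of Gli1 and Ptch1 and the lowest of Gli2 and Gli3, while 4T1 held the highest means of Hhip and Smo and the lowest of Ptch1, Shh and Ihh. These places in Ptch1, Gli3 and Hhip were kept under 6 of 6 alternatives, but EMT-6 stayed highest in Gli1 under 5 and lowest in Gli2 under 4, and 4T1 stayed highest in Smo under 3 and lowest in Shh under 5 and in Ihh under 4. The 6 were model medians, quantile normalization and each replicate number left out, and none left out the host-rich tumors. M6, the model next to EMT-6 in Gli1, had a Ptch1 mean of 9.50, above only R3T and 4T1. The 3 target genes were set against each other over the 12 model means, by permutation tests with 2-sided p-values adjusted over a family of 30 relations. Gli1 and Ptch1 gave r = 0.46 (p = 0.13, adjusted p = 0.54) and rho = 0.29 (p = 0.37), and r = 0.41 without the 2 models farthest from the median of Gli1. For Hhip no r over all 12 models is given because 4T1 lies apart. Over the other 11 models, a choice made after the values were seen, Hhip gave r = -0.32 with Gli1 (permutation p = 0.34, adjusted p = 0.85) and r = 0.11 with Ptch1 (permutation p = 0.75, adjusted p = 0.99). The rho values were -0.25 (permutation p = 0.47) and 0.29 (p = 0.39), and without the 2 models farthest from the median r was -0.25 and -0.09. Within models, over the deviations of 48 tumors from their model means, the permutation test gave r = 0.03 (p = 0.93) for Gli1 and Ptch1, r = 0.32 (p = 0.20) for Gli1 and Hhip, and r = -0.24 (p = 0.33) for Ptch1 and Hhip. Without the 2 tumors farthest from the median, these were 0.08, 0.09 and -0.39. The rho values were -0.03 (permutation p = 0.86), 0.07 (p = 0.67) and -0.31 (p = 0.060). Without the 9 host-rich tumors the within-model r was -0.24 for Gli1 and Ptch1, -0.16 for Gli1 and Hhip and -0.19 for Ptch1 and Hhip, so the first 2 changed sign. None of these relations passed the adjustment.

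**Figure D2:**
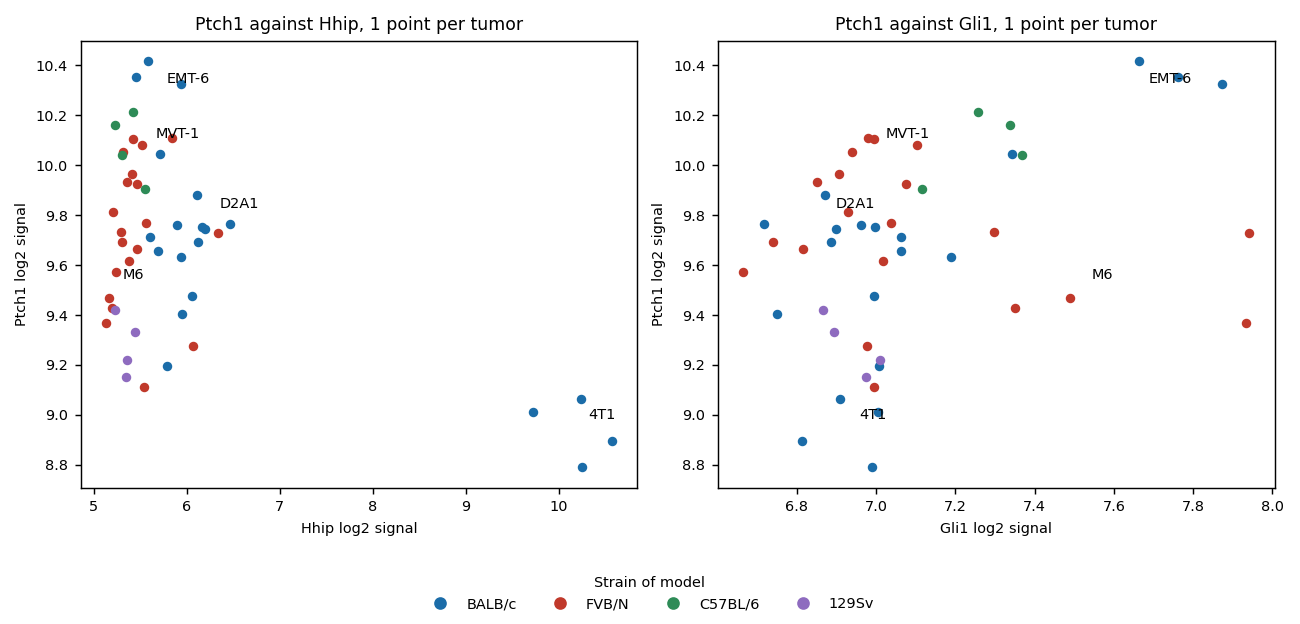
Ptch1 against Hhip (left) and against Gli1 (right), log2 signal on both axes, with 1 point per tumor for 48 tumors colored by strain and 5 models named. The 4 tumors of 4T1 sit alone at high Hhip and at the lowest Ptch1, and EMT-6 holds high values of Gli1 and Ptch1 while M6 holds high Gli1 with a Ptch1 mean of 9.50.

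The members were also compared with the scores of 3 marker lists, for fibroblasts and matrix, luminal epithelium and adipocytes. Over the 12 model means, 0 of the 30 relations passed an adjusted p of 0.05 in the permutation test. The 2 with the smallest p were those of Ptch1 with the luminal score, r = -0.76 (p = 0.0036, adjusted p = 0.11), and of Dhh with the fibroblast score, r = -0.71 (p = 0.0078, adjusted p = 0.12). The first had rho = -0.83 (p = 0.0018) and was -0.81 without EMT-6 and 4T1, the 2 models farthest in Ptch1. The second had rho = -0.43 (p = 0.16), changed to 0.09 without HRM-1 and E0771, and so rests on those models.

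Within models, 3 of the 30 relations passed by r. Smo and the adipocyte score gave r = -0.66 (permutation p = 9.0e-05, adjusted p = 0.0027) and rho = -0.61 (p = 1.0e-04), and r was -0.61 without the 2 tumors farthest in Smo. Ptch1 and the adipocyte score gave r = -0.65 (permutation p = 3.0e-04, adjusted p = 0.0045) and rho = -0.55 (p = 9.6e-04), and r was -0.57 without the 2 tumors farthest in Ptch1. Ptch1 and the luminal score gave r = -0.56 (permutation p = 0.0041, adjusted p = 0.041) and rho = -0.39 (permutation p = 0.022, adjusted p = 0.13), and r was -0.42 without the same 2 tumors. By rank this relation thus did not pass, and 4 others did, namely Smo and Ptch1 with the adipocyte score, Ptch1 with the fibroblast score (rho = -0.43) and Smo with the luminal score (rho = -0.48), the last 2 each at an adjusted permutation p of 0.049. Smo lay below its model mean in 7 of the 7 fat-rich tumors and Ptch1 in 6 of 7. Hhip lay below it in 2 of 7 and Gli2 in 1 of 7. Other markers moved with fat in these tumors. The fibroblast, basal and endothelial scores lay above their model means in 7 of the 7 and the luminal score in 6 of 7. The basal score ran from 0.24 to 2.29 in the fat-rich tumors and from -0.99 to 1.13 in the 39 tumors rich in neither fat nor B cell transcripts, and the endothelial score from 0.31 to 1.26 and from -0.76 to 0.54. The part of each of these in the values of Smo and Ptch1 was not tested. In the 39 tumors rich in neither kind of transcript, with deviations taken from the means of these tumors alone, r with the adipocyte score was -0.16 for Smo and -0.18 for Ptch1, and neither passed the adjustment (adjusted p = 0.63 for both by the same permutation test). With deviations from the means of all 4 tumors of a model, the same 39 tumors gave -0.40 and -0.48, so the value depends on whether the host-rich tumors enter the means. The relation of Ptch1 with the luminal score was 0.039 with the means of the 39 alone. A negative r with the adipocyte score was common on these arrays, and one as low as that of Smo or Ptch1 was much less so. Within models 65.8% of all genes had a negative r with the adipocyte score, and 3.23% had one as low as that of Smo and 3.55% as low as that of Ptch1. All 7 adipocyte markers measured were part of the score, and the score ran from 2.56 to 4.39 above the median tumor in the fat-rich tumors and from -1.20 to 2.26 in the 39 others.

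**Figure D3:**
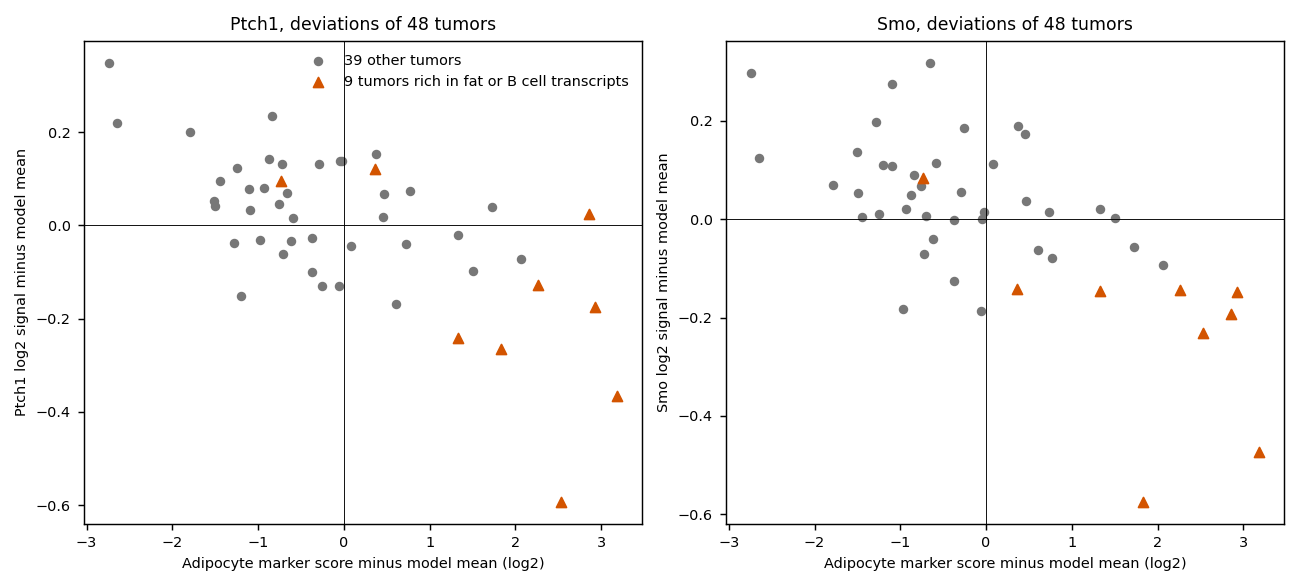
Deviation of Ptch1 (left) and Smo (right) from the model mean, in log2 signal, against the deviation of the adipocyte marker score from its model mean. Triangles are the 9 tumors rich in fat or B cell transcripts and circles the 39 others. Over all 48 points r is -0.65 for Ptch1 and -0.66 for Smo, and over the circles as plotted it is -0.48 and -0.40. Model means are those of all 4 tumors.

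Between the strains, 0 of the 9 members passed, comparing 5 BALB/c model means with 5 FVB/N model means in limma, where 0.191% of all genes did. At an unadjusted limma p under 0.05 the members also counted 0, where 1597 of the 19938 genes did. At that share a count of 0 among 9 says little about the members. The methods' t-test on the same means gave 0 members and 26 of all genes after adjustment. Hhip had the largest difference, 1.31 higher in BALB/c with an SE of 0.80 (limma adjusted p = 0.74, n = 5 and 5 models), and it was 0.46 without 4T1. The differences of the other 8 members lay between -0.23 for Dhh and 0.06 for Gli3. For 6 of these 8 the sign turned under at least 1 alternative. Dhh changed to 0.16 without HRM-1 and Ptch1 to 0.08 without 4T1. Strain and tumor origin cannot be told apart in these models, since the BALB/c lines were all spontaneous and the FVB/N lines all engineered.

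Of the 44 other pathway genes listed, 40 were measured. All 40 passed the F-test over the 12 models, against 70.4% of genes, 26 passed among the BALB/c models, against 46.7%, and 33 among the FVB/N models, against 62.4%. Between the strains 0 passed, against 0.191%. The median range of their model means was 1.31, beside 0.68 over all genes.

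Ligand processing and release genes passed over the 12 models in 6 of 6 cases. Disp2, related to the transporter that releases the ligands, averaged 10.03 ± 0.40 in E0771, with 9.46 in its lowest tumor, and 7.04 or less in the 11 other models (limma adjusted p = 3.2e-21). Scube3, of a family of secreted proteins that help release, was highest in M6 at 8.92 ± 0.71 and lowest in EMT-6 at 6.37 (limma adjusted p = 1.2e-12). HRM-1, the model high in Dhh, had the lowest mean of Hhat, the acyltransferase that modifies Hedgehog ligands, at 6.93. E0771, the model second in Dhh, had the highest, at 8.39, so the models first and second in Dhh held opposite ends of Hhat. The HRM-1 tumors (6.60 to 7.26) overlapped with those of F311 (6.94 to 7.48) in Hhat. Hhat lies outside the rule for named genes and was chosen after its values were seen.

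Co-receptor genes passed in 5 of 5 cases. Boc, a surface co-receptor for the ligands, was highest in Met-1 at 9.93 ± 0.47 and lowest in E0771 at 7.23 (limma adjusted p = 1.3e-05). Its values spread widely in 6DT1 (6.84 to 10.24) and F311 (7.61 to 9.43) and overlapped there with Met-1. All 3 models hold host-rich tumors, whose part in Boc was not tested. Lrp2, a large endocytic receptor, averaged 6.97 ± 0.28 in E0771 and 5.61 or less elsewhere (limma adjusted p = 6.6e-17). Among the genes that relay the signal from Smo to the Gli proteins, 11 of 11 passed. Evc and Evc2, a pair of ciliary proteins that bind Smo, were both highest in M6, the model second in Gli1. Evc averaged 8.91 ± 0.10 there and 8.10 or less elsewhere, and Evc2 8.14 ± 0.13 against 7.75 in E0771, the next model. Their limma adjusted p were 3.2e-14 and 1.9e-16. In EMT-6, the model highest in Gli1, Evc2 averaged 6.74. This was its lowest mean, but HRM-1, D2A1, Met-1 and F311 averaged 6.77 to 6.83 and their tumors overlapped with those of EMT-6. Cilium genes passed in 4 of 4 cases, with a median range of 0.88. Ift172, a subunit of the intraflagellar transport machinery, ran from 7.53 in E0771 to 8.11 in 6DT1, and Ift88, another subunit, from 7.82 in F311 to 8.54 in TS/A-E1.

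Genes known as Gli targets in other tissues passed in 14 of 14 cases, and their highest model differed from gene to gene. Jag2, a Notch ligand gene, was highest in HRM-1 at 10.02 ± 0.27, with M6 next at 8.93 ± 0.14 (limma adjusted p = 5.3e-18). Foxf2, a mesenchymal forkhead gene, averaged 7.50 ± 0.19 in D2A1, 7.46 ± 0.73 in M6 and 7.05 ± 0.39 in EMT-6. The first 2 were the models highest in Gli2 and EMT-6 the lowest, and E0771, the next after M6 in Gli2, averaged 5.68 for Foxf2. Met-1 was lowest at 5.56 (limma adjusted p = 4.3e-14). Foxc2 was highest in 4T1 at 9.64 and Bmp4 in EMT-6 at 10.31, and both were chosen after their values were seen.

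**Figure D4:**
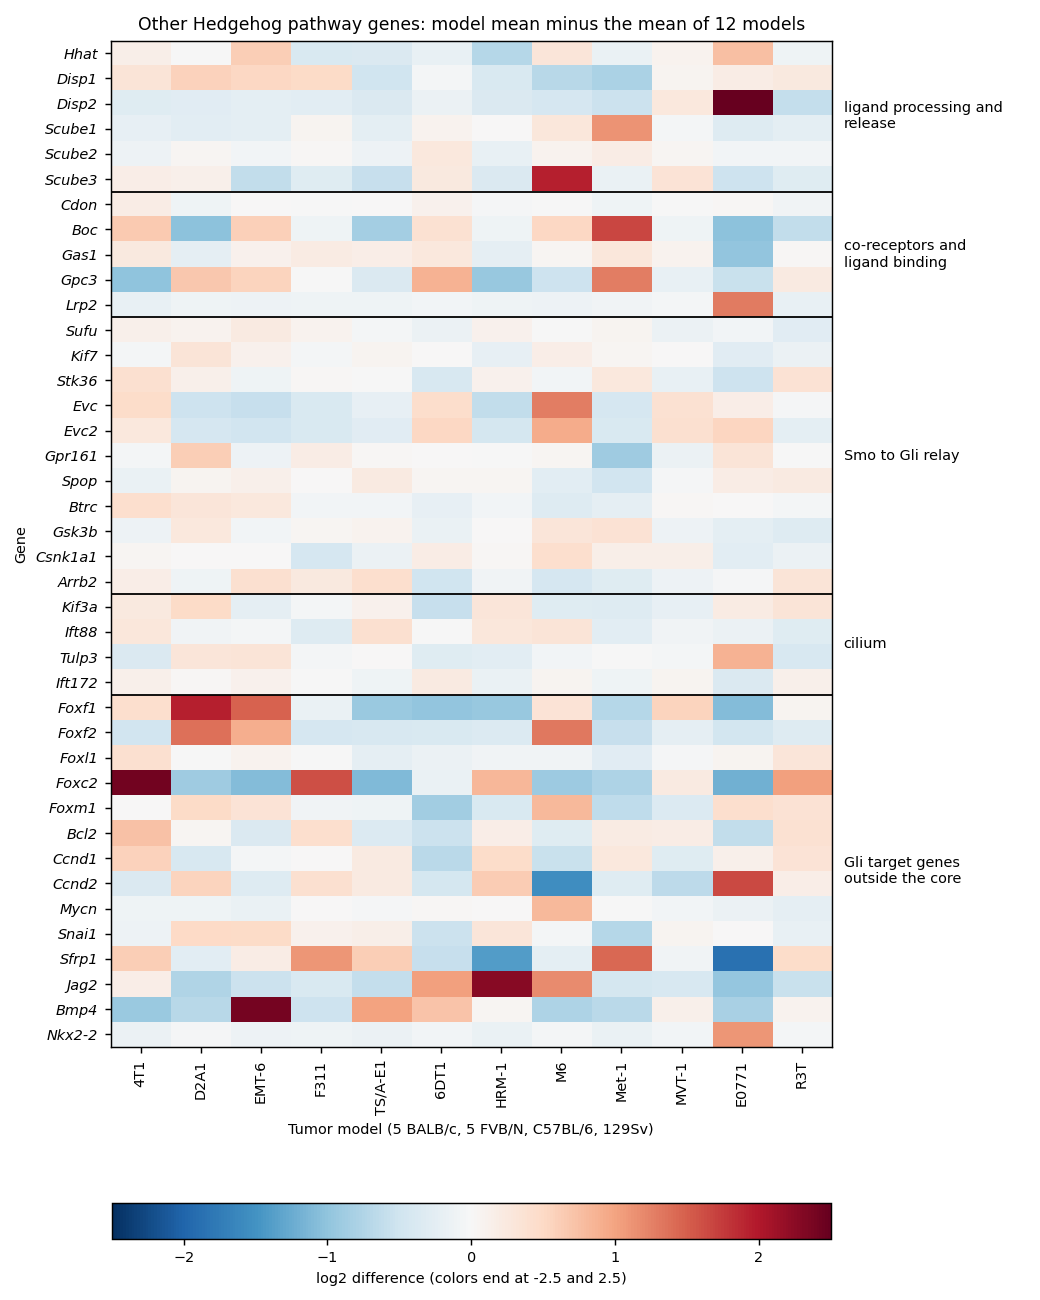
Model mean minus the mean of the 12 models, on the log2 scale, for the 40 measured genes of the other pathway lists (rows, grouped by list) in 12 models (columns). Red is above and blue below the mean of the models, and colors end at 2.5 in either direction. The darkest cells are single model and gene pairs, such as Disp2 in E0771, Foxc2 in 4T1 and Bmp4 in EMT-6.

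The genes whose 12 model means were most like those of Hhip, Dhh and Gli3, the 3 members with a range of at least 2, were sought among genes with a range of at least 1. For Hhip these were Dnase2b (r = 0.98), Tslp (r = 0.98), Grp (r = 0.97) and Slc13a2 (r = 0.96), all over n = 12 model means. All 4 were highest in 4T1, and without 4T1 their r with Hhip fell to 0.48, 0.43, -0.03 and -0.40. Tslp, an epithelial cytokine gene, averaged 10.06 ± 0.25 in 4T1 and 5.96 or less in the other models. For Dhh they were Nup107 (r = 0.96), Mdm2 (r = 0.95), Macroh2a3 (r = 0.92) and Vars2 (r = 0.89), all highest in HRM-1. Without HRM-1, r was 0.75 for Nup107 and for Mdm2, 0.41 for Macroh2a3 and 0.55 for Vars2. Mdm2, the ubiquitin ligase gene that limits p53, averaged 12.81 ± 0.16 in HRM-1 and 10.26 or less elsewhere. Nup107, a nuclear pore gene, is separated from Mdm2 by 1 protein-coding gene in the RefSeq annotation of GRCm38.p6, while Dhh is on another chromosome. For Gli3 they were Skida1 (r = 0.85), Phlpp1 (r = 0.85), Ezr (r = 0.84) and Sh2d5 (r = 0.83), and r stayed between 0.80 and 0.82 without TS/A-E1, the model highest in Gli3. These values describe likeness over 12 means taken from the same arrays and are given with no test.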

How the data were processed

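Total RNA of 48 tumors was amplified, labeled with biotin and hybridized to Affymetrix mouse gene arrays, 1 per tumor. The authors deposited log2 signal for 35556 transcript clusters per array. No source used here states the software, its background correction or the scaling method. Upper quartiles of 8.89 to 9.06 place the values on a common scale. Of the clusters, 21789 named 1 gene, 1621 several and 12146 are unnamed here. For each of 19938 genes the cluster with the highest mean was used. Groups came from the sample titles and strain labels, and the deposited tumors were taken as independent. Differences were tested with limma 3.58.1 in R 4.3.3 (lmFit, eBayes, Benjamini-Hochberg adjustment over all genes), after a check on simulated data. Relations used 100000 permutations. The precision is limited by 4 tumors per model. Signal includes background, so low values set no true zero and folds are folds of signal.

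The members and gene lists were chosen with earlier results of these data known. Named genes were all members, the 2 genes of each other pathway list with the smallest F-test p, and the 4 genes most like each member with a range of at least 2. Listed genes not matched to a cluster, among them Prkaca, Grk2, Arl13b, Prlr and Cfd, were not used here. Alternatives covered scaling, gene summary, filter, prior, replicate block, left-out replicates, tumors and models, and the methods' tests.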

Additional observations from a re-analysis of the deposited data

Results flagged for a closer look

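In 4 of 108 groups of 4 tumors, each a member gene in a model, 1 tumor lay apart from the other 3 by more than the limit of Dixon's test of outlying values. About 1 in 20 groups passes this limit when nothing sets a tumor apart. Gli1 in 6DT1 replicate 3 read 7.94, and the other 3 tumors of the model read 6.94 to 7.08. That tumor was fat-rich and also had the highest Gli2, Gli3, Hhip, Shh and Dhh of its model, and the part of its fat content in these values was not tested. Smo in EMT-6 replicate 3, a tumor rich in adipocyte and B cell transcripts, read 10.90, below 11.09 to 11.10 in the others. Ptch1 in D2A1 replicate 3 read 9.88, above 9.75 to 9.77. Shh in F311 replicate 3 read 6.66, below 6.75 to 6.77.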

How the results depend on the processing

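The counts of members that passed were 7 to 8 of 9 over the 12 models, 7 of 9 within BALB/c, 5 to 7 of 9 within FVB/N and 0 of 9 between the strains, and 36 to 40 of the 40 other pathway genes passed, under all alternatives run. Shh lost its call over the 12 models under 9 of 14 alternatives, among them quantile normalization (limma adjusted p = 0.097) and the replicate block. Smo lost its call within FVB/N without replicate 2 or 3 and with only those 5 models in the fit, and Hhip gained one (limma adjusted p = 0.016) without the 3 tumors nearer another model, a choice made after seeing the data.

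Of the relations within models, 3 passed, against 1 without the host-rich tumors and 1 to 4 when a replicate number was left out. The 1 without host-rich tumors was that of Shh and the adipocyte score (r = -0.59, n = 39), which did not pass with all tumors. It also passed without replicate 3 (r = -0.58) and without 6DT1 (r = -0.51), and Gli1 and the luminal score passed without 6DT1 (r = -0.53, against -0.06 with all tumors). Calls were also gained by Ihh and the adipocyte score under quantile normalization (r = -0.44), Smo and the luminal score without replicate 2 (r = -0.62) and Shh and the fibroblast score without replicate 3 (r = -0.57). Without the host-rich tumors r of Ptch1 and the luminal score turned to 0.039. That relation also lost its call under quantile normalization (adjusted p = 0.0502 by the permutation test), without any one replicate number and without 6DT1 (r = -0.34). Ptch1 and Smo kept their calls with the adipocyte score without 6DT1, at r = -0.60 for both. Both lost them without the host-rich tumors, whose removal also changed the model means, Smo also without replicate 2 (r = -0.66) and Ptch1 also without replicate 1, 2 or 4 (r = -0.59, -0.62 and -0.63), where r stayed about as large over 36 tumors. Over model means 0 relations passed under every alternative run.

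Replicate numbers showed little pairing of the tumors. Same-numbered tumors of different models deviated together with a mean r of 0.022, against -0.00048 for differently numbered tumors. In 2 of 66 model pairs every same-numbered r exceeded 0.1. Of 48 tumors 17 matched best a tumor of their own number, a count not tested against chance. With the replicate number as a block, 7 of 9 members and 39 pathway genes passed over the 12 models, where 14009 of 19938 genes did. Members that passed were 7 within BALB/c, where 9218 genes did, 6 within FVB/N, where 12396 did, and 0 between strains, where 446 did. Between strains, 38 of all genes passed on the model means. The methods' t-test on these means gave 26, and leaving out a model gave 19 to 44. Over single tumors, with the model as a random block, 489 passed, and 446 with the replicate number added to that fit. The smallest adjusted p of Hhip under these was 0.087 (limma, model as a random block). The ranges of Hhip (4.87 to 5.16), Gli3 (2.84 to 3.01) and Ptch1 (1.28 to 1.47) kept the same highest and lowest models under 6 of 6 alternatives. Both ends were kept under 4 for Ihh and Gli2, 3 for Dhh, Smo and Gli1 and 2 for Shh. None of these 6 alternatives left out the host-rich tumors. No member had another cluster to compare. Background in the signal limits what can be said of Shh and Ihh, which read 6.43 to 7.29 and 6.98 to 7.70 over all tumors. The same holds for Hhip outside 4T1 (5.13 to 6.46), Dhh outside HRM-1 (6.56 to 7.76) and Gli1 (6.66 to 7.94).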
